A study of Mus musculus with 12 samples.

Results

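The 44 protein-coding genes for collagen chains were described in mouse limb bud RNA. They were taken from the 54532 genes of the expression table by their symbols (Col, a type number, a, a chain number). Each gene was read in all 12 libraries. RNA came from limb buds at E12.5 (E for embryonic day), from the cytoplasmic lysate (input) and from sucrose gradient fractions that hold mRNAs carrying several ribosomes (polysome). Controls, called cHet, had the genotype Mettl14 wt/flox, and knockouts, called cKO, were Mettl14 flox/flox. Every animal therefore carried at least 1 floxed allele of Mettl14, whose protein pairs with METTL3 to place N6-methyladenosine marks on mRNA. For the Cre driver that makes the knockout conditional, the sources used here give no name. Each genotype and fraction had 3 libraries, labelled biological replicates, and nothing in the labels says whether a library holds 1 embryo or several. The series title is about METTL14 in chondrogenesis, the formation of cartilage, and about extracellular matrix genes, to which the collagens belong.

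Collagens are secreted proteins in which polypeptide chains wind into a triple helix. In the helix a glycine opens each triplet of residues, since its core has no room for a larger residue. Fibrillar collagens form the ropes of connective tissue, with types I, III and V in most mesenchyme and types II and XI in cartilage. Type IX coats the cartilage fibril, type IV forms the sheet of basement membranes, and other types link, anchor or span membranes. The genes were grouped as 8 cartilage collagens (types II, IX, X, XI and XXVII), 7 fibrillar collagens outside cartilage (types I, III, V and XXIV), 10 basement membrane collagens (types IV, VII, XV, XVII and XVIII) and 19 others.

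The repeat is visible in the coding sequences. In the GENCODE M21 annotation on mm10, all 44 genes had a coding transcript, at the coordinates of the expression table. The codons GGN, which encode glycine, made up a median of 24.2% of the codons of these genes, against 6.02% in 21540 other genes. The longest run of successive triplets of codons that each begin with GGN ranged from 23 to 344 triplets, with a median of 58.5 against 2 in other genes. A run of 20 or more was found in all 44 collagen genes and in 20 of the other genes. Coding sequences were long, with a median of 4616 bases (range 1320 to 9852) against 1185, and divided over a median of 48 exons against 7. The first 20 codons of the longest run are shown for 6 chains on which the results below turn, 5′ to 3′ on the coding strand, with the GGN codons in capitals.
Col1a1: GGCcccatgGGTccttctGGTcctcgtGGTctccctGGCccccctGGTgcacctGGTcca
Col1a2: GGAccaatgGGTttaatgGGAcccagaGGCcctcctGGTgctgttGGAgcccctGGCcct
Col9a1: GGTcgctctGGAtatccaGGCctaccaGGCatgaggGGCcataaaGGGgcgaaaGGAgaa
Col9a2: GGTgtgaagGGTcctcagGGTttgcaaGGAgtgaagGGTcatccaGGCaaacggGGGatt
Col4a1: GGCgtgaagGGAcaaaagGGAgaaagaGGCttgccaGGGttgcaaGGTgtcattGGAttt
Col27a1: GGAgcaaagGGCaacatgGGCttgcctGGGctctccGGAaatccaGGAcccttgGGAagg
The whole run counted 338 triplets in Col1a1, 339 in Col1a2 and 113 in both Col9a1 and Col9a2. It counted 217 in Col27a1 and 40 in Col4a1, whose helix is known for its interruptions. Col1a1 lies on the plus strand at chr11:94936224-94953042 and Col1a2 on the plus strand at chr6:4504814-4541544. Col9a1 (chr1:24177610-24252684), Col9a2 (chr4:121039385-121055322) and Col27a1 (chr4:63214004-63334991) also lie on the plus strand. Col4a1 lies on the minus strand at chr8:11198423-11312826, head to head with Col4a2 (chr8:11312805-11449287, plus strand), and their starts are 21 bases apart. The sources used here do not say whether the libraries keep strand, so reads from the 22 bases shared by both gene models may belong to either. Other protein-coding genes on the opposite strand overlapped the spans of Col18a1 (Slc19a1, mean 8.50 FPKM), Col9a3 (Tcfl5, 0.879) and Col10a1 (Nt5dc1, 2.08). Whether their exons overlap was not examined.

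Values are FPKM, fragments scaled to gene length and to the assigned reads of a library. The length is that of the whole gene model, which exceeds the annotated coding transcript unevenly. It was 12426 against 5348 bases in Col1a2, 8176 against 2724 in Col26a1 and 6563 against 5930 in Col1a1. The order of genes and the class shares therefore depend on the gene model, and they were not recomputed with other lengths. Libraries held 10349912 to 30068823 assigned reads, so that a single read in a gene 1 kb long stood for 0.0930 to 0.0320 FPKM. Across the 13610 genes tested over all 12 libraries, 2 libraries stood apart on the leading principal components. The first component (51.9% of the variance) separated the fractions. The polysome library of cKO replicate 1 scored 3.97 on it, between the input libraries and the other polysome libraries (35.5 to 53.8). The input library of cKO replicate 3 scored −63.0 on the second component (17.1%), where the other input libraries scored 0.49 to 22.5. The targeted gene, Mettl14, was measured at 4.09, 4.03 and 4.04 FPKM in the cHet input libraries, all above the 2.60, 3.32 and 1.26 of cKO input. On polysomes it had 2.83, 3.07 and 3.02 in cHet and 2.73, 2.81 and 3.29 in cKO, which overlapped, so it does not check the polysome labels. Its genotype difference was not past the threshold in either fraction (limma, adjusted p = 0.295 in input and 0.954 on polysomes).

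By FPKM, collagen mRNAs in control input were led by types I and III. Col1a1 and Col1a2, the chains of type I collagen, the main fibril of connective tissue, averaged 87.8 ± 1.54 and 62.9 ± 4.31 FPKM (SD, n = 3). Col3a1, which forms fibrils with type I in soft tissue, averaged 81.8 ± 2.60. Col26a1, a collagen with an EMI domain, followed at 36.4 ± 0.304. These 4 genes took 43.6% to 48.7% of the summed collagen FPKM in each of the 12 libraries and were its most abundant collagens in 10. The exceptions were cKO input replicate 1, where Col18a1 (35.7) was above Col1a2 (34.6), and cKO polysome replicate 1, where Col9a1 (24.5) was above Col1a2 (23.3). In cHet input each of the 4 was separate from the next in order, with no overlap between libraries. The next 11 genes, from Col5a1 at 27.6 to Col6a2 at 14.9, each overlapped with the neighbour in the order. They included Col18a1 (26.9), the most abundant basement membrane collagen, Col4a1 (24), Col2a1 (23.1) and the type IX chains Col9a1 (21.8) and Col9a2 (18.3).

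By class, fibrillar collagens outside cartilage made up 48.9% ± 1.02 of the collagen FPKM in cHet input. Other collagens made up 21.2% ± 1.03, basement membrane collagens 15.7% ± 0.334 and cartilage collagens 14.2% ± 1.79. The mean reached an FPKM of 10 for 15 of the 44 genes and of 1 for 30. Of the 14 below 1, Col4a3, of the type IV network of kidney and lung, was lowest at 0.00802 FPKM and was listed at 0 in 5 of the 12 libraries. Col10a1, which hypertrophic chondrocytes make, was at 0.123, 0.135 and 0.212 in cHet input. Cartilage markers were present in part: the defining matrix genes Acan, Comp and Ucma stayed under an FPKM of 1 in every library of all 4 groups, and 7 of 12 listed markers had a mean of at least 1 in cHet input. Of the osteoblast markers, 3 of 7 had such a mean in cHet input and 4 of 7 in cKO input, while Bglap, Dmp1 and Ibsp stayed under 1 in all 12 libraries.

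**Figure D1:**
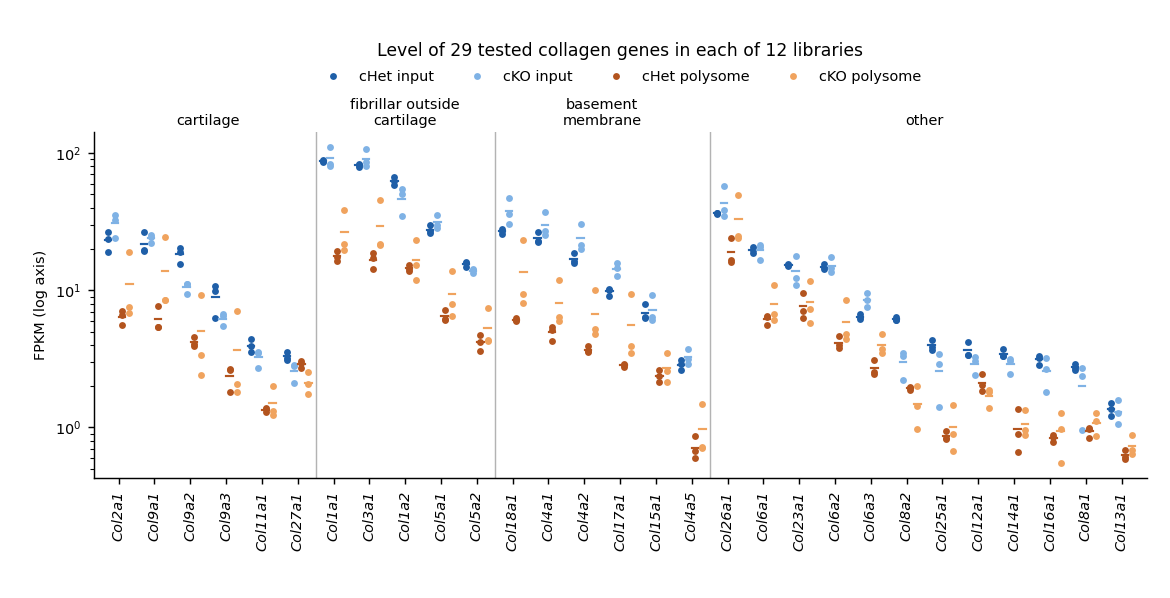
FPKM (log axis) of the 29 collagen genes tested over 12 libraries, in the 4 classes and ordered within a class by the cHet input mean. Each point is a library and each short line a group mean. Input points (blue) lie above polysome points (brown) of the same genotype for most genes, while for Col27a1 they lie close together.

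Collagen mRNAs were depleted on control polysomes as a class. The summed collagen FPKM was 566 ± 25.3 in cHet input (SD, n = 3) and 154 ± 4.19 in cHet polysome RNA. Of the 29 tested genes 28 were lower on polysomes at an adjusted p under 0.05, none was higher, and 1 was not called (limma on log2(FPKM + 0.1)). Over all 13610 genes tested, 25.9% were called lower and 27.3% higher. The median log2 difference, polysome minus input, was −1.81 over the collagens and 0.02 over all genes. Differences are on the log2(FPKM + 0.1) scale, on which low genes show less than their true change. FPKM is relative to the rest of a library, so these are shares of each RNA pool and not absolute amounts.

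Testing asked for an FPKM of 1 in 3 libraries, which a gene could reach through input alone. The 22 collagens at 1 or more in all 12 libraries had no such route, and 21 of them were called lower. The other 7, among them Col25a1, Col14a1 and Col16a1, were under 1 in some library and were all called lower. The remaining 15 genes were not tested. With no filter on low values, 36 of all 44 genes were called lower, against 10.9% of 30833 genes. By levels alone, all 29 tested collagens had every cHet polysome library below every cHet input library, where 37.2% of all tested genes did. Over all 44 collagens it was 41, a count with no share of unfiltered genes beside it. It takes in untested genes near the floor, such as Col5a3 (mean 0.101 FPKM in cHet input), and is not read as a result. Among the 137 genes that make up the lowest 1% of polysome to input differences in cHet, 15 were collagens.

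Fibrillar collagens outside cartilage stood lowest, with 5 of 5 tested genes called and a median of −2.11. Col1a1 had 86.1, 88.2 and 89.1 FPKM in cHet input and 17.5, 19.2 and 16.2 on cHet polysomes. The groups were far apart, and polysome levels were 20.3%, 21.8% and 18.2% of the input libraries of the same number. The log2 difference was −2.31 (SE 0.22, adjusted p = 7.71e-05). Col3a1 had 78.9, 82.5 and 83.9 against 17.2, 18.6 and 14.3, a log2 difference of −2.29 (SE 0.25). Col1a2 had 58.6, 63.1 and 67.2 against 14.3, 15.2 and 13.9, a difference of −2.11 (SE 0.23). Col5a1, a chain of the type V collagen that nucleates type I fibrils, had 26.1, 27.0 and 29.8 against 6.05, 7.12 and 6.22 (−2.08, SE 0.22). In each of these genes the lowest input library was at least 3 times the highest polysome library.

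Basement membrane collagens were called in 6 of 6, with a median of −2.0. Col4a1, the common chain of the type IV sheet, had 22.8, 22.5 and 26.6 FPKM in cHet input and 4.28, 5.39 and 5.13 on polysomes (log2 −2.26, SE 0.24, adjusted p = 9.54e-05). Its partner Col4a2 had 16.4, 15.8 and 18.8 against 3.57, 3.89 and 3.61 (−2.17, SE 0.25). The groups were far apart for both chains. Col18a1, a proteoglycan collagen whose end fragment is endostatin, had 25.5, 27.9 and 27.2 against 6.05, 6.26 and 6.01 (−2.12, SE 0.31).

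Cartilage collagens were called in 5 of 6, with a median of −1.82. Col2a1, the main chain of cartilage fibrils, had 23.5, 19 and 26.7 FPKM in cHet input and 7.05, 5.56 and 6.61 on polysomes (−1.82, SE 0.32). Col9a1 had 19.7, 19.2 and 26.6 against 5.44, 5.40 and 7.63 (−1.81, SE 0.33). Col9a2 had 19.1, 15.6 and 20.2 against 4.56, 4.03 and 3.94 (−2.10, SE 0.35). The third type IX chain, Col9a3, had 9.87, 6.30 and 10.7 against 2.66, 1.81 and 2.64 (−1.86, SE 0.40). All of these groups were without overlap.

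The exception was Col27a1, a fibrillar collagen of cartilage with a long amino-terminal region, named here after its value was seen. It had 3.11, 3.23 and 3.56 FPKM in cHet input and 2.96, 2.73 and 3.06 on polysomes. Polysome levels were 95.1%, 84.6% and 85.9% of input, where the median of the 29 collagens was 28.6%, 29.9% and 24.7% in lysates 1 to 3. The groups did not overlap, yet the difference of −0.17 (SE 0.17) was not past the threshold (adjusted p = 0.399).

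The other collagens were called in 12 of 12, with a median of −1.55 and a range from −2.07 to −0.76. Col26a1 had 36.7, 36.1 and 36.5 FPKM in cHet input and 16.7, 16.1 and 24 on polysomes (−0.96, SE 0.27, adjusted p = 0.0109). That is among the smaller differences in the class, and its share of input (45.6%, 44.6% and 65.6%) lay above the collagen median in all 3 lysates. Other collagens took 31.8% ± 2.83 of the collagen FPKM on cHet polysomes, against 21.2% ± 1.03 in input. Fibrillar collagens outside cartilage took 39.0% ± 3.56 against 48.9% ± 1.02.

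**Figure D2:**
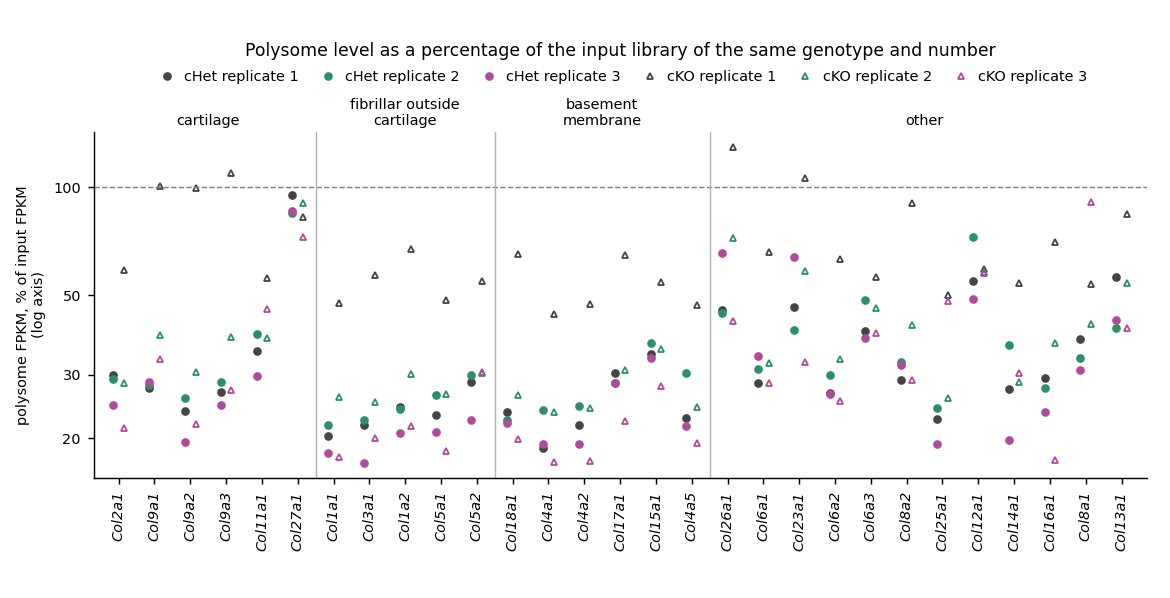
Polysome FPKM as a percentage of the input FPKM of the same genotype and replicate number (log axis) for the 29 tested collagens. Filled circles are cHet, open triangles cKO, and the dashed line marks 100%. Most points of cHet and of cKO replicates 2 and 3 lie well below the line, Col27a1 stands near the line in every pair, and cKO replicate 1 is the highest for most genes.

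The polysome difference varied with coding length in cHet, and collagens had lower medians than other genes in each range of length they occupied. Among tested genes other than collagens the median cHet log2 difference was 0.62 for coding sequences under 1000 bases. It was −0.08 from 1000 to 2000 bases, −0.54 from 2000 to 4000 and −0.79 from 4000 bases. The tested collagens had medians of −1.02 (3 genes), −1.74 (8 genes) and −1.85 (18 genes) in the latter 3 ranges. Across the 29 collagens the Spearman correlation of the difference with coding length was −0.04 in cHet and −0.36 in cKO. With the share of GGN codons it was −0.58 in cHet and −0.34 in cKO, so the order of these properties was not the same in both genotypes. With input level it was −0.59 in cHet and −0.58 in cKO. These are descriptions across genes that share the same libraries, and the last shares the input values on both axes.

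In knockout tissue the depletion was again present, with 25 of 29 tested collagens called lower and none higher. Of 13610 genes, 15.6% were called lower and 16.9% higher, and the median difference was −1.37 against 0.06 over all genes. All 5 fibrillar collagens outside cartilage and all 6 tested basement membrane collagens were called, as were 4 of 6 cartilage and 10 of 12 other collagens. Of the 22 genes at 1 FPKM in all libraries 19 were called, and with no filter on low values 26 of 44 (background 5.58% of genes called lower). The 4 not called were Col27a1, Col26a1, Col9a3 and Col8a1, named after their values were seen.

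The polysome library of cKO replicate 1 held more collagen RNA than the 5 other polysome libraries. Its summed collagen FPKM was 351, where cKO replicates 2 and 3 and cHet lay between 149.5 and 179.3. It was highest of the 6 polysome libraries for 26 of the 29 collagens with a mean of at least 1 FPKM. The share of all genes highest in this library was not computed. The library's ratio to the mean of cKO replicates 2 and 3 had a median of 1.84 over those collagens and 1.03 over 12884 genes. Without it 27 collagens were called lower in cKO (background 22%) with a median of −1.62. Without it and without cKO input replicate 3, a choice made after seeing the data, it was 28 (background 30%) with a median of −1.56.

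Col4a1 had the largest difference in cKO. It had 26.8, 25.3 and 36.9 FPKM in input and 11.9, 5.98 and 6.35 on polysomes (−1.92, SE 0.24, adjusted p = 0.000393). Col4a2 had 21.4, 19.9 and 30.4 against 10.1, 4.83 and 5.26 (−1.87, SE 0.25). Both kept the groups apart although polysome replicate 1 was well above the other 2. Col1a1 had 80.9, 83.8 and 110.1 against 38.5, 21.8 and 19.6 (−1.83, SE 0.22). Col3a1 had 80.3, 85.7 and 107 against 45.7, 21.6 and 21.5 (−1.7, SE 0.25). Col5a1 had 28.6, 30.1 and 35.2 against 13.8, 8.0 and 6.47 (−1.79, SE 0.22). The same replicate was highest in all 3 of these fibrillar genes. Col18a1 had 35.7, 30.5 and 47.4 against 23.3, 8.05 and 9.42 (−1.62, SE 0.31). Col2a1 had 32.4, 24.2 and 35.7 against 19, 6.87 and 7.60 (−1.59, SE 0.32). Col4a5, a type IV chain of the sheet around muscle and under epithelia, had 3.13, 2.90 and 3.71 against 1.47, 0.707 and 0.720 (−1.72, SE 0.25).

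**Figure D3:**
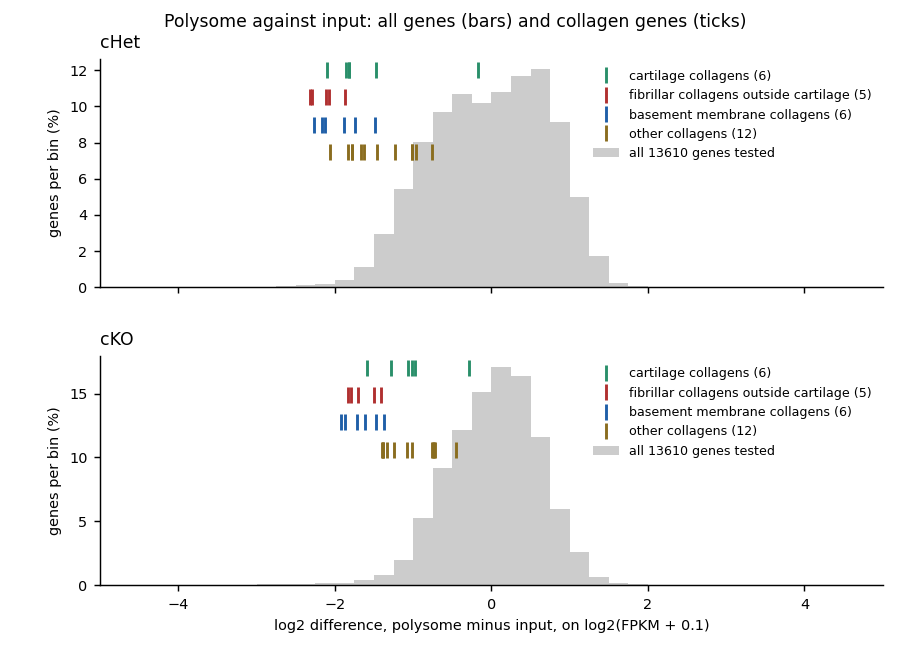
Distribution of the log2 difference, polysome minus input, in cHet and cKO. Grey bars give the percentage of all 13610 tested genes per bin of 0.25, and coloured ticks mark the tested collagens by class, at heights with no meaning. The collagens lie in the lower tail in both genotypes, with Col27a1 as the rightmost cartilage tick at −0.17 in cHet and −0.28 in cKO.

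The genes that modify, fold, export, cut, crosslink, bind and degrade collagen were read from a list of 54, of which 45 were tested. In cHet 30 were lower on polysomes and 5 higher, beside 25.9% and 27.3% of all genes, with a median of −0.95, between that of all genes and that of the collagens. Lower genes were 10 of 13 tested hydroxylation and glycosylation genes, 5 of 13 chaperones and export factors, and 4 of 5 genes of propeptide cleavage. They were also 2 of 4 crosslinking genes, 6 of 6 receptors and 3 of 4 turnover genes. The largest differences were in Mmp2, the gelatinase A (−1.58, SE 0.31), and Serpinh1, the collagen chaperone HSP47 (−1.46, SE 0.29). Plod1, a lysyl hydroxylase (−1.45, SE 0.28), the lysyl oxidase-like genes Loxl3 (−1.41, SE 0.28) and Loxl2 (−1.34, SE 0.21), and Bmp1, which removes the carboxyl propeptide (−1.33, SE 0.23), followed. Serpinh1 had 424, 489 and 511 FPKM in input and 144, 159.8 and 218 on polysomes, without overlap.

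The 5 higher genes, named after their values were seen, were Pcolce2 (1.05), Creb3l1 (0.74), Tmem38b (0.51), Mia2 (0.48) and P4ha3 (0.41). Pcolce2 encodes an enhancer of propeptide cleavage and Creb3l1 a transcription factor held in the endoplasmic reticulum membrane. In cKO 17 of the 45 were lower and 3 higher, beside 15.6% and 16.9% of all genes, with a median of −0.54. The largest cKO differences were in Bmp1 (−0.99), Mmp2 (−0.99), Plod1 (−0.95), the collagen-binding integrin Itga11 (−0.94), the endocytic collagen receptor Mrc2 (−0.94) and the gelatinase B gene Mmp9 (−0.91).

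The comparison of knockout with control input asks which collagen mRNAs differ in the cytoplasm between the 2 Mettl14 genotypes. None of the 29 tested collagens passed the threshold, and none of 12977 genes did (0%). At an unadjusted p under 0.05 there were 7 collagens, against 15% of all genes, and voom on the recovered reads called 0 genes. The collagen median was −0.02 (cKO minus cHet) against −0.01 over all genes, with 14 genes above 0 and 15 below. In bulk RNA, fewer cells of a type and less RNA per cell cannot be told apart.

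The 4 genes with the smallest p were a cartilage collagen, a basement membrane collagen and a pair of the other collagens. Col9a2 had 19.1, 15.6 and 20.2 FPKM in cHet and 9.36, 11.1 and 11 in cKO input, a difference of −0.79 (SE 0.14, adjusted p = 0.141). Col8a2, a short-chain collagen known from the corneal endothelium, had 6.40, 6.04 and 6.10 against 2.23, 3.48 and 3.33 (−1.04, SE 0.19, adjusted p = 0.141). Every cKO library was below every cHet library in both. Col17a1, the transmembrane collagen of hemidesmosomes, which anchor epidermis, had 9.11, 10.3 and 10.1 against 14.5, 12.6 and 15.7 (0.53, SE 0.13, adjusted p = 0.166). Col6a3, a chain of the beaded filaments of type VI, had 6.14, 6.40 and 6.68 against 8.53, 7.52 and 9.51 (0.40, SE 0.13, adjusted p = 0.240). These 2 were higher in cKO without overlap.

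Without cKO input replicate 3, the library that stood apart, Col8a2 (−1.12, adjusted p = 0.0443) and Col9a2 (−0.83, adjusted p = 0.0444) passed. In that fit 0.6% of 12827 genes were called lower and 1.94% higher, and no collagen was called higher. With the spread taken from all 12 libraries, 0.558% of genes were called higher and 0.0441% lower in cKO input, and no collagen was among them.

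The groups did not overlap for 12 of the 29 collagens, 4 of them higher and 8 lower in cKO, where 29.3% of all genes had groups without overlap. Basement membrane collagens had a median of 0.38, with all 6 above 0 and Col17a1, Col18a1 and Col4a2 without overlap. Their share of the collagen FPKM was 15.7% ± 0.334 in cHet and 19.9% ± 1.5 in cKO input. Without cKO input replicate 3 the median was 0.20 and 5 of 6 were above 0. Cartilage collagens had a median of −0.31 with 2 of 6 above 0, other collagens −0.22 with 3 of 12, and fibrillar collagens outside cartilage 0.05 with 3 of 5.

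The cartilage genes were unlike among themselves. Col2a1 had 23.5, 19 and 26.7 FPKM in cHet and 32.4, 24.2 and 35.7 in cKO input (0.41, adjusted p = 0.367), and Col9a1 had 19.7, 19.2 and 26.6 against 24.3, 22.0 and 25.4 (0.14, adjusted p = 0.656). Both overlapped between genotypes. Col9a3 had 9.87, 6.30 and 10.7 against 6.49, 5.46 and 6.72 and overlapped as well (−0.49, adjusted p = 0.348). Of the type I chains, Col1a2 had 58.6, 63.1 and 67.2 against 34.6, 50.1 and 54.7, lower without overlap (−0.46, SE 0.18, adjusted p = 0.303). Col1a1 had 86.1, 88.2 and 89.1 against 80.9, 83.8 and 110.1 and overlapped (0.05, adjusted p = 0.876).

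The summed levels of 3 lists of cell type markers did not overlap between the genotypes in input. The 12 epidermis markers, all with a mean of at least 1 FPKM in both, summed to 338 to 351 FPKM in cHet and 405 to 447 in cKO input. Macrophage markers, 9 of 10 with such a mean in both, summed to 43.6 to 48.9 and 55.7 to 80.1. Limb mesenchyme markers, 7 of 7 with such a mean, summed to 526 to 614 and 658 to 845. Twist1 (228 to 248 and 267 to 363) and Prrx2 (115 to 146 and 163 to 231) made up most of that sum. By log2 difference 6 of these markers were above 0 and 1, Prrx1, was below, with 3 higher in cKO without overlap. By log2 difference 10 of the 12 epidermis markers were above 0 and 2 below. Among them 4 were higher in cKO without overlap and 1, Krt18, was lower without overlap. The other lists overlapped. Endothelium markers, 10 of 10 with such a mean, summed to 74.1 to 82.9 and 66.2 to 97. Cartilage markers, 7 of 12 with such a mean in each genotype, summed to 44.3 to 61.0 and 43.2 to 51.5. Matn1 had such a mean only in cHet and Matn3 only in cKO. Sox9 made up most of that sum, at 28.0 to 37.5 and 28.9 to 34.0. Of the 6 cartilage markers tested, 5 were below 0 and 1 above, with a median log2 difference of −0.34 and none called. Among those tested, Matn4 and Cnmd were lower in cKO without overlap. Of the cartilage markers not tested, Matn3 was higher in cKO without overlap (0.592 to 0.949 FPKM in cHet, 0.981 to 1.27 in cKO input). Acan and Comp, also not tested, were lower without overlap. None of the lists named here had a marker at 0 in every library. Their part in the collagen differences was not tested.

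On polysomes none of the 23 tested collagens differed past the threshold between genotypes, and none of 12877 genes did (0%). At an unadjusted p under 0.05 there were 9 collagens, against 21.3% of all genes, and voom called 0. The collagen median was 0.45 (cKO minus cHet) against 0.02 over all genes, with 20 of 23 above 0. Without cKO polysome replicate 1 the median was 0.16 and 14 of 23 were above 0. In that fit 0.785% of 12738 genes were called higher and 0.471% lower, and no collagen was among them. With the spread of all 12 libraries, 1.07% of genes were called higher and 0.279% lower, again without a collagen. Groups did not overlap for 10 of the 23, 9 higher and 1 lower in cKO, where 31.4% of all genes had groups without overlap. By class the median was 0.77 for 5 basement membrane, 0.47 for 5 fibrillar, 0.31 for 7 other and 0.24 for 6 cartilage collagens. Without that library they were 0.37, 0.16, 0.06 and −0.16.

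The 4 collagens with the smallest p on polysomes were Col6a3, Col4a2, Col18a1 and Col27a1. Col6a3 had 2.44, 3.10 and 2.54 FPKM in cHet and 4.78, 3.46 and 3.73 in cKO (0.54, SE 0.17, adjusted p = 0.149). Col4a2 had 3.57, 3.89 and 3.61 against 10.1, 4.83 and 5.26 (0.77, SE 0.26, adjusted p = 0.161). Col18a1 had 6.05, 6.26 and 6.01 against 23.3, 8.05 and 9.42 (0.97, SE 0.35, adjusted p = 0.175). All 3 were higher in every cKO library, replicate 1 the highest. Without that library their differences were 0.41, 0.44 and 0.51. Col27a1 had 2.96, 2.73 and 3.06 against 1.75, 2.53 and 2.09 and was lower in every cKO library (−0.45, SE 0.17, adjusted p = 0.186).

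Of the 23 genes tested in both fractions, 4 were higher in cKO without overlap in both, and 1, Col27a1, was lower in both. Of the 12411 genes tested in both, 8.3% were higher and 4.42% lower in that way. The epidermis markers summed to 189 to 196 FPKM in cHet and 247 to 469 in cKO polysome RNA, with 12 of 12 at a mean of at least 1 in both and the highest sum in replicate 1. Macrophage markers summed to 53.9 to 59.8 and 70.9 to 98.3, with 8 of 10 and 10 of 10 at such a mean. Schwann and neural markers summed to 12.8 to 14.6 and 16.8 to 29.9, with 6 of 6 and 5 of 6. These 3 lists did not overlap between the genotypes and were highest in cKO replicate 1, and the other lists overlapped. Within the Schwann and neural list 4 of 6 markers were higher in cKO without overlap, and 1, Stmn2, was lower without overlap. Cartilage markers summed to 25.5 to 34.2 and 24.8 to 40.9, with 5 of 12 and 6 of 12 at such a mean. None of these lists had a marker at 0 throughout a group. Their part in the result was not tested.

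**Figure D4:**
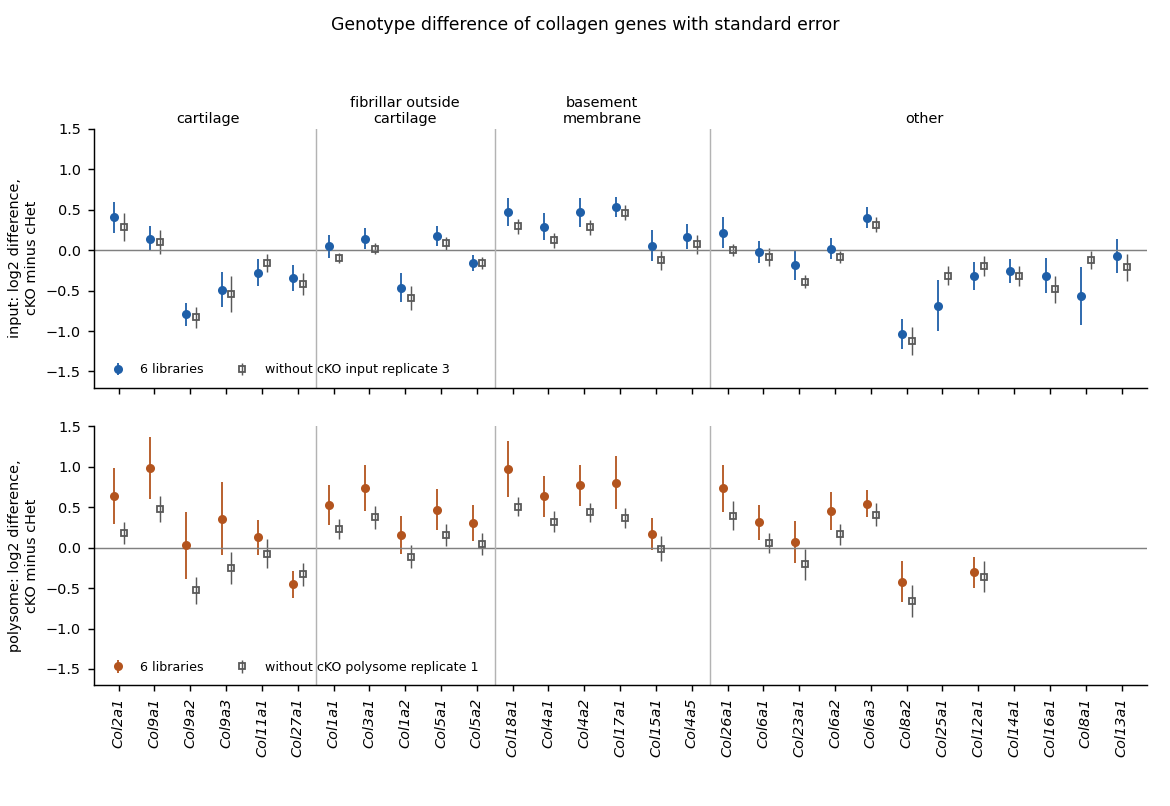
Log2 difference, cKO minus cHet, in input (upper panel, 29 genes) and on polysomes (lower panel, the 23 genes tested there). Filled points are the fit on 6 libraries, open squares the fit without the library that stood apart, and bars are standard errors. In input Col9a2 and Col8a2 lie lowest in their classes with both fits, and on polysomes most open squares lie nearer to 0 than the filled points.

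Among the collagen pathway genes none of 45 tested passed in input and none of 41 on polysomes. The smallest p-values in input belonged to Larp6, Creb3l1 and Sec24d. Larp6, which binds a stem-loop in type I collagen mRNAs, had 1.55, 1.58 and 1.86 FPKM in cHet and 3.84, 3.54 and 4.59 in cKO input (1.21, SE 0.16, adjusted p = 0.141). Its groups did not overlap. Creb3l1 had 10.9, 11 and 9.66 against 6.40, 8.16 and 7.45 (−0.52, adjusted p = 0.183). Sec24d, a coat protein of export vesicles that large procollagens need, had 8.52, 8.40 and 8.86 against 5.26, 6.48 and 6.53 (−0.50, adjusted p = 0.183). On polysomes the smallest p-values belonged to Creb3l1 (−0.93, adjusted p = 0.0848), Mmp2 (1.26, adjusted p = 0.122) and P3h4, a partner of the hydroxylases (0.75, adjusted p = 0.123). Creb3l1 had 17.4, 18.4 and 17.1 FPKM on cHet and 7.29, 11.1 and 9.62 on cKO polysomes.

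The change of the polysome to input ratio between genotypes was tested as an interaction over 12 libraries. None of 29 collagens and none of 13610 genes (0%) passed. At an unadjusted p under 0.05 there were 0 collagens and 4.69% of all genes, and voom called 0. The median interaction was 0.39 over the collagens, 28 of 29 above 0, and 0.02 over all genes. Without cKO polysome replicate 1 it was 0.15 with 21 of 29 above 0, and without both libraries that stood apart it was 0.20. The smallest p-values belonged to Col1a2 (0.62, SE 0.32), Col8a2 (0.62, SE 0.33), Col25a1, a transmembrane collagen (0.82, SE 0.44), and Col9a1 (0.84, SE 0.47), each with an adjusted p of 0.790. In shares of input, Col9a1 was at 27.6%, 28.1% and 28.6% in cHet and at 101%, 38.7% and 33.3% in cKO. The median share over the 29 collagens was 59.2% in cKO lysate 1, 32.4% in lysate 2 and 27.9% in lysate 3, and over cHet it was 24.7% to 29.9%. None of the 45 pathway genes passed either, with Loxl2 at the smallest p (0.66, SE 0.30, adjusted p = 0.790).

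Chains of one trimer can be compared as ratios of FPKM within a library, which removes the library's scale. The 7 pairs with both chains at 1 FPKM or more in all 12 libraries were used, and 3 other pairs (Col4a5:Col4a6, Col11a1:Col11a2 and Col8a1:Col8a2) fell short. The size of a ratio depends on the gene model lengths, 6563 bases for Col1a1 and 12426 for Col1a2, and is not read as the make-up of the trimer. These lengths cancel when the same ratio is compared between libraries. Col1a1:Col1a2 was 1.47, 1.40 and 1.33 in cHet input and 2.34, 1.67 and 2.01 in cKO input. It was 1.23, 1.26 and 1.17 on cHet and 1.65, 1.44 and 1.66 on cKO polysomes. Every cKO library was above every cHet library of its fraction. The log2 genotype difference over both fractions was 0.44, with an exact permutation p of 0.1, the smallest that 20 splits of lysates allow, and an adjusted p of 0.14 over 7 ratios.

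Between fractions the same ratio was lower on polysomes by −0.26 in log2 (exact permutation p = 0.005 over 400 splits, adjusted 0.035). Col5a1:Col5a2 was lower on polysomes too, by −0.28 in log2 (exact permutation p = 0.01, adjusted 0.035). It averaged 1.78 ± 0.0694 in cHet input, 2.25 ± 0.233 in cKO input, 1.55 ± 0.147 on polysomes of cHet and 1.74 ± 0.202 on those of cKO (SD, n = 3), and its genotype difference was 0.25 (exact permutation p = 0.1, adjusted 0.14). In this test, which does not pair the lysates, the other 5 ratios were not past the threshold between fractions, although some had larger differences. Col6a3:Col6a1 differed by 0.34 (exact permutation p = 0.03, adjusted 0.07) and Col9a1:Col9a2 by 0.31 (p = 0.065, exact permutation, adjusted 0.0758). The differences of Col9a3:Col9a2, Col6a1:Col6a2 and Col4a1:Col4a2 were 0.24, 0.12 and −0.07. The exact test takes libraries as exchangeable within a genotype. When the fractions were exchanged only within a lysate, the adjusted p-values of Col1a1:Col1a2 and Col5a1:Col5a2 became 0.0547. Both ratios fell on polysomes in every lysate, which gives the smallest p this paired test allows. Col9a1:Col9a2 and Col9a3:Col9a2 rose on polysomes in every lysate and so had the same p in it.

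The type IX pair moved furthest between genotypes. Col9a1:Col9a2 was 1.03, 1.23 and 1.32 in cHet input and 2.59, 1.99 and 2.30 in cKO input. On polysomes it was 1.19, 1.34 and 1.93 in cHet and 2.63, 2.52 and 3.49 in cKO. The ratio was higher in all cKO than in all cHet libraries in both fractions, and cKO polysome replicate 1, at 2.63, lay between the other 2. The log2 difference was 0.95, with the smallest possible exact permutation p of 0.1 and an adjusted p of 0.14. Leaving out any 1 lysate gave 0.83 to 1.09.

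The genotype differences of the remaining pairs were smaller than that of Col9a1:Col9a2. Col4a1:Col4a2 was 1.41 ± 0.0145 in the cHet input libraries and 1.25 ± 0.0300 in those of cKO, with 1.33 ± 0.117 and 1.21 ± 0.0327 for polysomes (log2 −0.16, exact permutation p = 0.1, adjusted 0.14). Col6a3:Col6a1 was 0.326 ± 0.0260 and 0.442 ± 0.0782 in input (0.33 over both fractions, exact permutation p = 0.1, adjusted 0.14). Col6a1:Col6a2 differed by −0.09 (p = 0.3, exact permutation) and Col9a3:Col9a2 by 0.32 (p = 0.2, exact permutation).

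**Figure D5:**
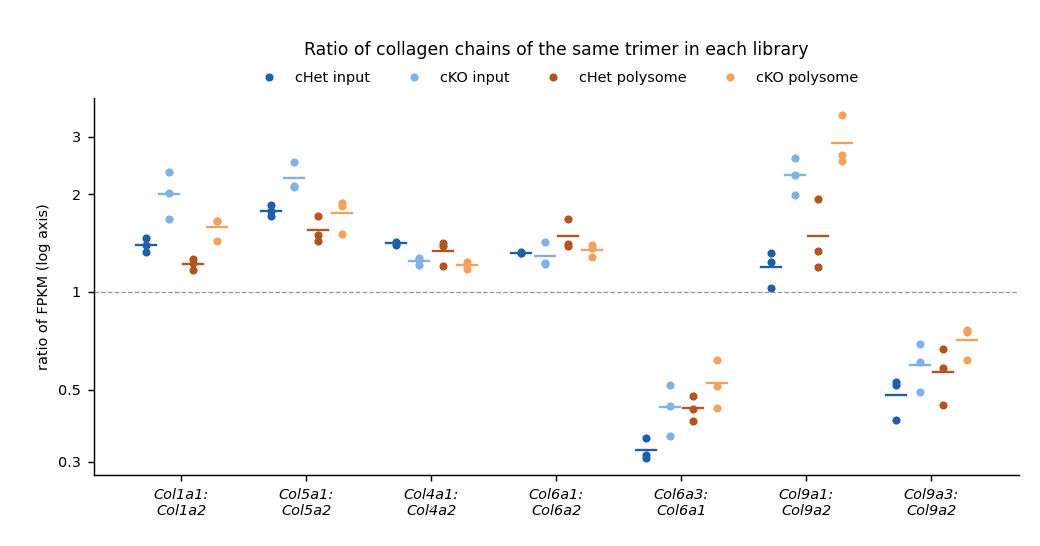
Ratio of FPKM (log axis) of 7 pairs of collagen chains in each of 12 libraries, with points for libraries and short lines for group means. Col9a1:Col9a2 lies between 1.03 and 1.93 in cHet and between 1.99 and 3.49 in cKO, and Col1a1:Col1a2 lies between 1.17 and 1.47 in cHet and between 1.44 and 2.34 in cKO.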

How the data were processed

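The authors deposited 1 table of FPKM values for 12 libraries, made with HISAT2 2.0.5 and featureCounts 1.5.0-p3 on mm10, per the submitters' processing notes. RNA depletion and strandedness are not given in the sources used here. Multiplied by gene length, all FPKM values above 0 gave whole reads (100% within 0.01), which gave the depths. Values were analysed as log2(FPKM + 0.1) in limma 3.58.1 (R 4.3.3) with an intensity trend. Genes at an FPKM of 1 in at least 3 fitted libraries were tested, and Benjamini-Hochberg adjusted p-values over all tested genes are limma's, two-sided. Genotypes were compared on 6 libraries, and polysome against input and the interaction on 12 libraries with 4 group means and a shared spread. Chain ratios used exact permutation tests in Python 3.11.15.

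Named are Col2a1, Col1a1, Col1a2, Col4a1, the type IX chains, the most abundant gene of each class and, per comparison, up to 8 collagens past the threshold by size of change, or else the 4 with the smallest p. Of the pathway genes up to 6 past the threshold, or else up to 3, are named. Members and lists were chosen with earlier results of these data known. p-values measure the spread between libraries, whose independence beyond the label of biological replicate is not stated. Input and polysome libraries of 1 genotype and number were read as 1 lysate from the design text, which no label states.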

Additional observations from a re-analysis of the deposited data

How the results depend on the processing

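Alternatives were other pseudocounts, filters and scalings, voom on recovered reads, the replicate block, all 12 libraries in the genotype fits, leaving out each library, and, chosen after seeing the data, leaving out both libraries that stood apart. Of 93 recomputed counts of collagens called, 92 stayed within 1.5 times the reported count. The exception was genotype in input, with 2 collagens without cKO input replicate 3 and 0 to 2 over all libraries left out. In polysome against input, leaving out a library gave 28 in cHet throughout and 20 to 27 in cKO. The median difference became −1.49 in cHet and −1.10 in cKO at a pseudocount of 1, and −1.47 and −1.04 with no filter on low values. Scaling to protein-coding genes moved the median of all genes in cHet from 0.02 to −0.21, and 29 of 31 collagens were then called lower.

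Deviations from the group means in same-numbered input and polysome libraries of 1 genotype had r = 0.0525 to 0.249 across genes. cHet and cKO libraries of 1 number, which share only a number, had r = −0.281 to 0.165. These ranges overlap, so they do not show whether same-numbered libraries share a lysate. With the replicate block the counts of collagens called were 28, 25, 0, 0 and 0 as without it. The paired test of the chain ratios gave −0.26 for Col1a1:Col1a2 and −0.28 for Col5a1:Col5a2. Each had an adjusted p of 0.0547, from the smallest p that test allows. Leaving out 1 lysate, these differences ranged from −0.29 to −0.22 and from −0.33 to −0.19, at adjusted p of 0.0583 to 0.117. Those tests have fewer splits.

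Calls over all genes moved more. Against 0 genes in each genotype comparison, fitting all 12 libraries called 82 in input and 184 on polysomes, and the replicate block called 42 on polysomes. Leaving out a library called up to 326 in input (without cKO replicate 3) and up to 231 on polysomes (without cKO replicate 2). The interaction called 7 genes with no filter and 1 at a pseudocount of 0.01. The 15 genes not tested were left out by the filter on FPKM.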
